A study of Homo sapiens with 8 samples.

Results

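The genes described here are 10 of the 13 protein-coding genes of the human mitochondrial genome, measured by bulk RNA-seq in the human glioblastoma line LN229-TAZ(4SA). They were chosen by gene symbol from a table of 13036 listed genes: ND1, ND2, ND3, ND4 and ND5 of respiratory complex I, CYTB of complex III, COX1, COX2 and COX3 of complex IV, and ATP6 of complex V. COX1 and COX2 are the mitochondrial cytochrome oxidase subunits, checked by gene identifier, and the cyclooxygenase genes that share these short names stand in the table as PTGS1 and PTGS2. The rule goes by gene name and uses no measured value, but the set was proposed with earlier results of these data known.

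Cells were held in glucose-free medium with AF at 1 uM, or in regular medium without AF, for 1 h or 7 h, and each of these 4 groups has 2 libraries. AF is given in the labels only by this abbreviation, and the series title speaks of thioredoxin reductase 1 inhibition in glucose-starved cells. Every library comes from the same TAZ(4SA) line, so cells without that alteration were not part of the comparison. AF and glucose withdrawal were applied together and cannot be told apart. Libraries are named A and B within their group, by column, with no pairing between groups. Separate cultures are not mentioned in the labels, and the p-values reflect the spread between libraries alone, which may be technical. For each gene, limma takes much of that spread from all genes tested (median prior degrees of freedom 14.54, residual 4).

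Mitochondria keep a small circular genome whose protein genes encode core subunits of the electron transport chain and of ATP synthase, the enzymes that turn the oxidation of nutrients into ATP. A dedicated RNA polymerase transcribes each strand as a long precursor. Mature messengers are then released, largely by excision of the tRNAs that lie between them, and receive short poly(A) tails, so that the levels of genes from 1 precursor can differ through processing and decay. All 10 genes are read from the same strand, in the order ND1, ND2, COX1, COX2, ATP6, COX3, ND3, ND4, ND5 and CYTB.

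The last 30 bases of each gene are shown because the messengers of this genome differ at this end. In 4 of the 10 genes the stop codon is encoded whole, and in 6 the encoded sequence ends in T or TA, which the poly(A) tail completes. Sequences are from GENCODE release 29 transcripts on GRCh38, and the coordinates, on chrM (plus strand), are the same in the RefSeq annotation. Capitals mark the encoded stop letters.
ND1 (chrM:3307-4262): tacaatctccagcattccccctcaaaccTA
ND2 (chrM:4470-5511): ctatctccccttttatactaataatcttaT
COX1 (chrM:5904-7445): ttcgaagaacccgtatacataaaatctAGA
COX2 (chrM:7586-8269): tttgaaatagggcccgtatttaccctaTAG
ATP6 (chrM:8527-9207): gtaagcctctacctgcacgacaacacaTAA
COX3 (chrM:9207-9990): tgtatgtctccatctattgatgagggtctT
ND3 (chrM:10059-10404): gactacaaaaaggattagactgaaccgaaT
ND4 (chrM:10760-12137): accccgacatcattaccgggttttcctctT
ND5 (chrM:12337-14148): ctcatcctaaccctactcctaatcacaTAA
CYTB (chrM:14747-15887): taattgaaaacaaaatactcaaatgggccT

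A pair of the genes share bases with a smaller neighbour on the same messenger, so reads from the shared stretch cannot be assigned to 1 gene. ATP6 begins inside ATP8, and ND4 begins inside ND4L. Capitals mark the start codon of the downstream gene and the stop codon of the upstream gene.
ATP8/ATP6 (chrM:8527-8572, 46 bases): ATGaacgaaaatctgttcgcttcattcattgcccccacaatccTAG
ND4L/ND4 (chrM:10760-10766, 7 bases): ATGcTAA

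Total reads in listed genes ran from 27731776 to 45811965 per library. Values are CPM, read counts scaled to library size, taken back from the deposited log2 values, and they rest on library sizes that the authors adjusted. Against the reads in listed genes, the adjusted sizes were 1.04 to 1.05 times as large for the regular libraries and 1.09 times for the treated 1 h pair, but 0.838 and 0.846 times for the treated 7 h pair. This adjustment therefore raises every treated 7 h value against its share of the reads. All 10 genes passed the filter on low values, with 6623 to 262574 reads per gene and library, so counting error is small beside the spread between libraries. Of the 6 markers fixed for glial or mesenchymal glioblastoma cells 5 were listed, and their summed level was lower in treated cells at both times, at 5799 to 5884 CPM against 6401 to 6440 in regular cells at 1 h and 6822 to 6883 against 7357 to 7379 at 7 h. At a limma adjusted p under 0.05, 0 of the 5 were higher and 3 lower at 1 h (all genes 17.7% and 20.7%). At 7 h 1, S100A6 (log2 fold change 0.08), was higher and 3 lower (all genes 40.5% and 41.1%). The part of the summed difference in the results below was not tested. None of the 3 erythroid markers was listed.

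Levels were compared between genes per kilobase of gene length. How evenly the mRNA kit captures these messengers was not tested. In regular culture at 1 h COX2 was highest at 5110 ± 101.0 CPM per kb (SD, n = 2), followed by COX3 at 3992 ± 39.1. COX1 stood at 3589 ± 28.1 CPM per kb and ND4 at 3379 ± 165, and ATP6 at 3137 ± 157. The differences of ND4 from its neighbours COX1 and ATP6 are within 2 SD of ND4. CYTB (1729 ± 63.8 CPM per kb) and ND2 (1506 ± 86.5) came next. ND3 (1214 ± 45.8), ND1 (1121 ± 37.6) and ND5 (993 ± 33.5) were the lowest. In treated cells at 7 h COX2 (6686 ± 32.96 CPM per kb) was still highest, but ND4 (4816 ± 224) and COX1 (4143 ± 33.3) came before COX3 (2348 ± 10.6) and ATP6 (1875 ± 59.8). ND1 (1153 ± 81.8) and CYTB (1138 ± 35.2) then lay within their spread of each other, and ND5 (968 ± 57.3), ND2 (848 ± 32.9) and ND3 (800.2 ± 33.1) closed the order.

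Levels in regular culture differed little between the times. None of the 10 genes passed the test between 7 h and 1 h in regular medium, with log2 differences from -0.05 to 0.00 and limma adjusted p from 0.319 to 0.940, while 61.5% of all genes tested were called in this comparison in one direction or the other. The regular libraries of the 2 times share no sample, so they give separate baselines for the treatment effects.

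After 1 h of treatment 7 of the 10 genes fell and 1, ND4, rose, at a limma adjusted p under 0.05 on the deposited scaling. Among all 13028 genes tested, 17.7% were called higher and 20.7% lower. The median log2 fold change of the 10 genes was -0.20, against 0.01 for all genes tested. At 7 h, 5 fell and 3 rose, and here 40.5% of all genes were called higher and 41.1% lower, so that 8 called members of 10 is near the background. The 10-gene median was -0.29 at 7 h, against -0.01 for all genes. Standard errors of the log2 fold changes were 0.03 to 0.05 for each of the 10 genes at either time. In bulk RNA, a change in the number of cells or mitochondria and a change in RNA per cell cannot be told apart.

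**Figure D1:**
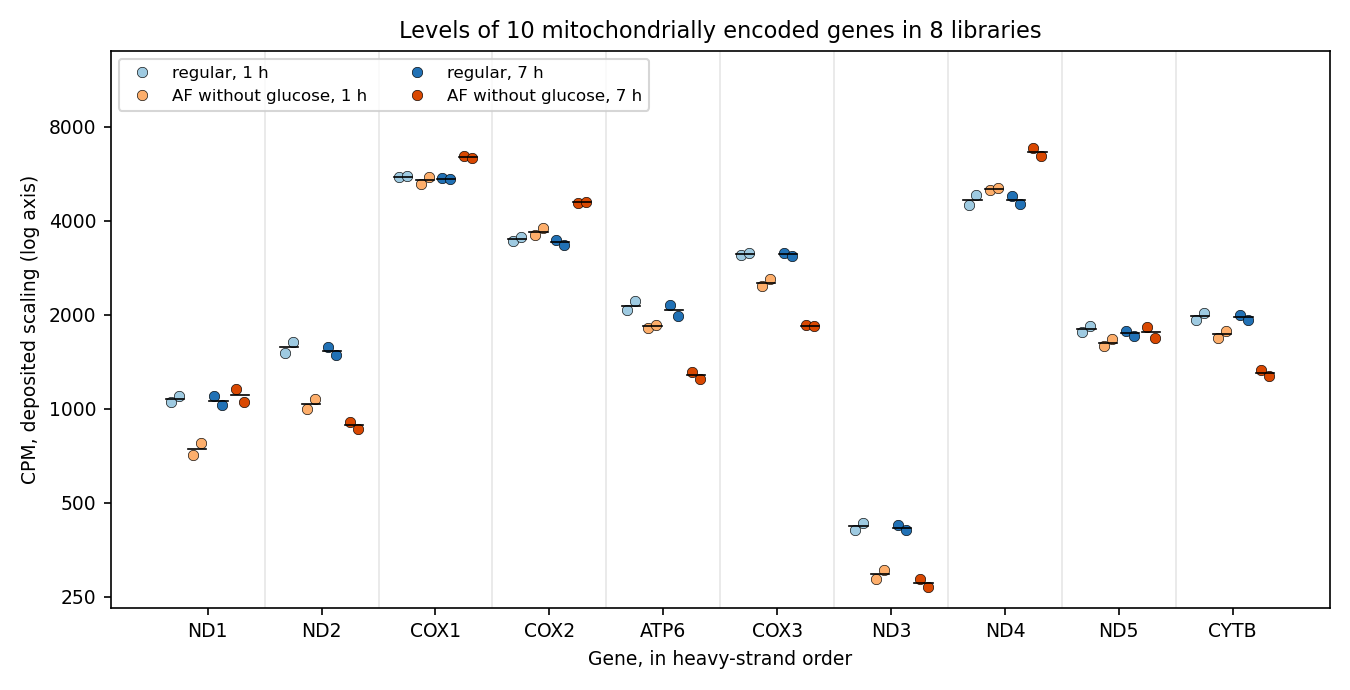
CPM of the 10 genes in each of the 8 libraries on a log axis (points), with the mean of the 2 libraries of each group (lines), on the deposited scaling. The 4 regular libraries lie together for each gene, while the treated 7 h libraries lie above them for COX1, COX2 and ND4 (called lower under quantile normalization) and below them for ND2, ATP6, COX3, ND3 and CYTB.

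Complex I, which takes electrons from NADH, has 5 of the members, and they did not move together. ND2, a membrane-arm subunit, measured 1505 and 1633 CPM in regular cells at 1 h, against 1000 and 1073 after treatment. At 7 h ND2 measured 1577 and 1481 CPM in regular cells and 908 and 859 in treated cells. The groups were apart at both times, and ND2 fell by 0.60 on the log2 scale at 1 h (limma adjusted p = 6.6e-10) and by 0.79 at 7 h (adjusted p = 1.1e-12).

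ND3, a small membrane-arm subunit, gave 409 and 431 CPM in regular and 284 and 305 in treated cells at 1 h. Its 7 h values were 423 and 409 CPM in regular and 285 and 269 in treated cells. The 4 treated libraries lie between 269 and 305 CPM, below all 4 regular libraries. ND3 fell by 0.51 at 1 h and by 0.59 at 7 h on the log2 scale (limma adjusted p = 2.0e-09 and 3.4e-11).

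ND1, the membrane subunit next to the quinone-binding site, fell at 1 h and did not pass the test at 7 h. It measured 1046 and 1097 CPM for regular and 707 and 775 for treated cells at 1 h, a fall of 0.53 on the log2 scale (limma adjusted p = 1.5e-08). At 7 h ND1 stood at 1095 and 1026 CPM in regular and 1157 and 1047 in treated cells, and these groups overlap. The 7 h log2 fold change was 0.05 (adjusted p = 0.280). Without treated 7 h library B it was 0.13 and passed the test (adjusted p = 0.0258).

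ND4, a proton-pumping membrane subunit, went the other way. Regular cells at 1 h had 4496 and 4817 CPM and treated cells 5029 and 5105. At 7 h regular cells had 4803 and 4533 CPM and treated cells 6855 and 6419, with a gap between the groups at both times. The 1 h rise of 0.12 (limma adjusted p = 0.0172) did not pass on leaving out regular 1 h library A (adjusted p = 0.245), on leaving out treated 1 h library B (adjusted p = 0.0923) or in limma without the intensity trend (adjusted p = 0.155). At 7 h ND4 rose by 0.51 on the deposited scaling (adjusted p = 3.1e-10), by 0.19 with libraries scaled to the total of their listed genes, and was called lower (-0.70) under quantile normalization.

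ND5, another proton-pumping subunit, had 1757 and 1843 CPM in regular and 1582 and 1669 in treated cells at 1 h. It fell by 0.15 on the log2 scale (limma adjusted p = 0.0054), a call that ended on leaving out regular 1 h library B (adjusted p = 0.0741), and likewise treated 1 h library A (adjusted p = 0.083). The call also ended with libraries scaled to the total of listed genes (-0.08, adjusted p = 0.0845) or to the total outside the mitochondrial genome (adjusted p = 0.0854), and in limma without the intensity trend (adjusted p = 0.108). At 7 h its groups overlap, with 1778 and 1708 CPM in regular and 1828 and 1681 in treated cells, and the log2 fold change was 0.01.

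CYTB encodes cytochrome b, the only mitochondrially encoded subunit of complex III, which passes electrons from ubiquinol to cytochrome c. Its level was 1921 and 2024 CPM in regular and 1687 and 1775 in treated cells at 1 h, and 1999 and 1918 against 1327 and 1270 at 7 h. The treated libraries were below the regular ones at both times. CYTB fell by 0.19 at 1 h and by 0.59 at 7 h on the log2 scale (limma adjusted p = 0.00027 and 6.1e-12).

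In complex IV, the cytochrome c oxidase that reduces oxygen, COX3 parted from COX1 and COX2. COX3 measured 3108 and 3152 CPM in regular and 2462 and 2597 in treated cells at 1 h, then 3148 and 3087 against 1847 and 1835 at 7 h. COX3 fell by 0.31 at 1 h and by 0.76 at 7 h (limma adjusted p = 1.2e-07 and 1.4e-14), and the 7 h groups do not come near each other.

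COX2, which holds the entry site for electrons from cytochrome c, gave 3446 and 3544 CPM in regular and 3588 and 3794 in treated cells at 1 h. At 7 h it gave 3477 and 3347 CPM in regular and 4557 and 4589 in treated cells. The 1 h groups are apart by a small gap and the log2 fold change of 0.08 did not pass the test (limma adjusted p = 0.0678), although it did without treated 1 h library A (0.12, adjusted p = 0.0181). With libraries scaled to the total of listed genes COX2 was called higher at 1 h (0.15, limma adjusted p = 0.000618). It was also called higher at 1 h on the total outside the mitochondrial genome (0.15), under quantile normalization (0.12) and with voom weights (0.08). With median-of-ratios size factors (0.08) it was not. At 7 h COX2 rose by 0.42 on the deposited scaling (adjusted p = 4.0e-10), by 0.11 with libraries scaled to the total of listed genes, and was called lower (-0.59) under quantile normalization.

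COX1, the catalytic subunit, had 5504 and 5565 CPM in regular and 5256 and 5524 in treated cells at 1 h, groups that overlap (log2 fold change -0.04, limma adjusted p = 0.357). At 7 h it had 5481 and 5430 CPM in regular and 6424 and 6352 in treated cells, all treated values above the regular ones. The 7 h rise was 0.23 on the deposited scaling (adjusted p = 1.4e-06), and it turned to a fall under other scalings, given further on.

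ATP6, the membrane subunit a of ATP synthase that forms its proton path, fell at both times. Regular cells at 1 h had 2061 and 2212 CPM and treated cells 1814 and 1856. At 7 h regular cells had 2153 and 1986 CPM and treated cells 1305 and 1248. The groups are apart at both times, and the falls were 0.22 and 0.70 on the log2 scale (limma adjusted p = 0.00017 and 2.5e-12).

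On the deposited scaling, 4 of the 6 members with an incomplete stop fell at 7 h, 1 rose and 1 did not pass the test. Among the 4 with a complete stop 1 fell, 2 rose and 1 did not pass, beside 40.5% of all genes higher and 41.1% lower. Neither kind of 3' end was limited to 1 direction on this scaling. Under quantile normalization all 10 genes were lower, as were 5471 of all 13028 genes tested. Within each group, the 2 libraries differed by at most 0.117 to 0.145 on the log2 scale for any of the 10 genes. The genes moved together between the libraries of a group: all 10 were higher in library B in both 1 h groups, none was in regular cells at 7 h, and 1 was in treated cells at 7 h. The 10 genes are therefore not independent measurements of a library.

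The treatment effect differed between the times for 9 of the 10 genes. In the test of the 7 h effect minus the 1 h effect, ND1 (0.59), ND4 (0.38), COX2 (0.34), COX1 (0.27) and ND5 (0.16) had a higher effect at 7 h, and ATP6 (-0.48), COX3 (-0.45), CYTB (-0.40) and ND2 (-0.19) a lower one. Of all genes, 36.7% were called higher and 37.0% lower in this test. These directions hold for the deposited scaling. With libraries scaled to the total of listed genes 1 of the 10 genes was called higher and 7 lower, with COX1 at -0.12 and ND5 at -0.23, and COX2 (-0.04) and ND4 (0.00) not called. Quantile normalization gave 0 higher and 9 lower. All 13028 genes tested gave 2501 higher and 7598 lower on the listed-gene total, and 4452 and 5035 under quantile normalization. The ND2 call ended on leaving out regular 1 h library A, treated 1 h library B or regular 7 h library A (limma adjusted p up to 0.0569). The ND5 call ended on leaving out regular 1 h library B, treated 1 h library A, regular 7 h library B or treated 7 h library A (adjusted p up to 0.121). In limma without the intensity trend neither ND2 (adjusted p = 0.105) nor ND5 (adjusted p = 0.136) passed. ND3 did not pass (log2 difference -0.07, adjusted p = 0.226).

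Compared directly, treated cells at 7 h differed from treated cells at 1 h in all 10 genes, with 5 higher and 5 lower on the deposited scaling, where 36.9% of all genes were called higher and 40.7% lower. With libraries scaled to the total of listed genes 1 was called higher and 7 lower, with COX1 at -0.13 and ND5 at -0.26. COX2 (-0.06) and ND4 (0.02) were not called, and quantile normalization gave 1 and 9. All 13028 genes tested gave 2239 higher and 8589 lower on the listed-gene total, and 4900 and 5093 under quantile normalization. On the deposited scaling ND1 showed the highest value, 0.57 on the log2 scale, and ATP6 the lowest, -0.52. The ND3 difference of -0.09 (limma adjusted p = 0.0435) ended on leaving out any 1 of 4 libraries, namely treated 1 h library B (adjusted p = 0.435), treated 7 h library B (0.349) and either regular 7 h library (0.0522 for each). That for ND5 (0.11) ended on leaving out library A of the treated 1 h pair (adjusted p = 0.172) or of the treated 7 h pair (adjusted p = 0.294). Without the intensity trend neither ND3 (adjusted p = 0.19) nor ND5 (adjusted p = 0.132) passed. This comparison shares the treated libraries with those above.

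The direction of several genes depended on how the libraries were scaled. With each library scaled to the total of its listed genes, the median of all genes tested shifted to 0.08 at 1 h and to -0.32 at 7 h, and of all calls 68.4% were higher at 1 h (46.1% on the deposited scaling) and 29.2% at 7 h (49.7%). At 7 h COX1 turned from 0.23 to -0.09 under this scaling and was called lower (limma adjusted p = 0.00544). ND1 (-0.26) and ND5 (-0.31), near 0 on the deposited scaling, were called lower as well. COX2 (0.11) and ND4 (0.19) were still called higher at 7 h. So 8 of the 10 genes were lower and 2 higher at 7 h under this scaling. Of all 13028 genes tested, 7594 were lower and 3132 higher. The shifted median of all genes lies at the ND5 value, within its standard error, and below the values of ND1 and COX1.

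Quantile normalization, which forces all libraries to one distribution and so moves the most abundant genes by their rank, gave all 10 genes lower at 7 h, from -1.35 for COX3 to -0.39 for ND1. Of all 13028 genes tested, 5471 were called lower and 5096 higher at 7 h under quantile normalization. COX1 had a log2 fold change of 0.60 at 1 h and -0.97 at 7 h under it. Median-of-ratios size factors moved no 7 h value of the 10 genes by more than 0.02 from the deposited scaling. ND2, ND3, COX3, ATP6 and CYTB were lower at 7 h under all 17 alternatives tried, and ND1, ND2, ND3, COX3, ATP6 and CYTB were lower at 1 h under all 17. No gene was called higher at either time under all of them. These alternatives are not separate checks. Leaving out a library of the other time does not move a fold change. The scalings to the total of listed genes and to the total outside the mitochondrial genome nearly coincide (COX3 at 7 h -1.077 and -1.079).

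**Figure D2:**
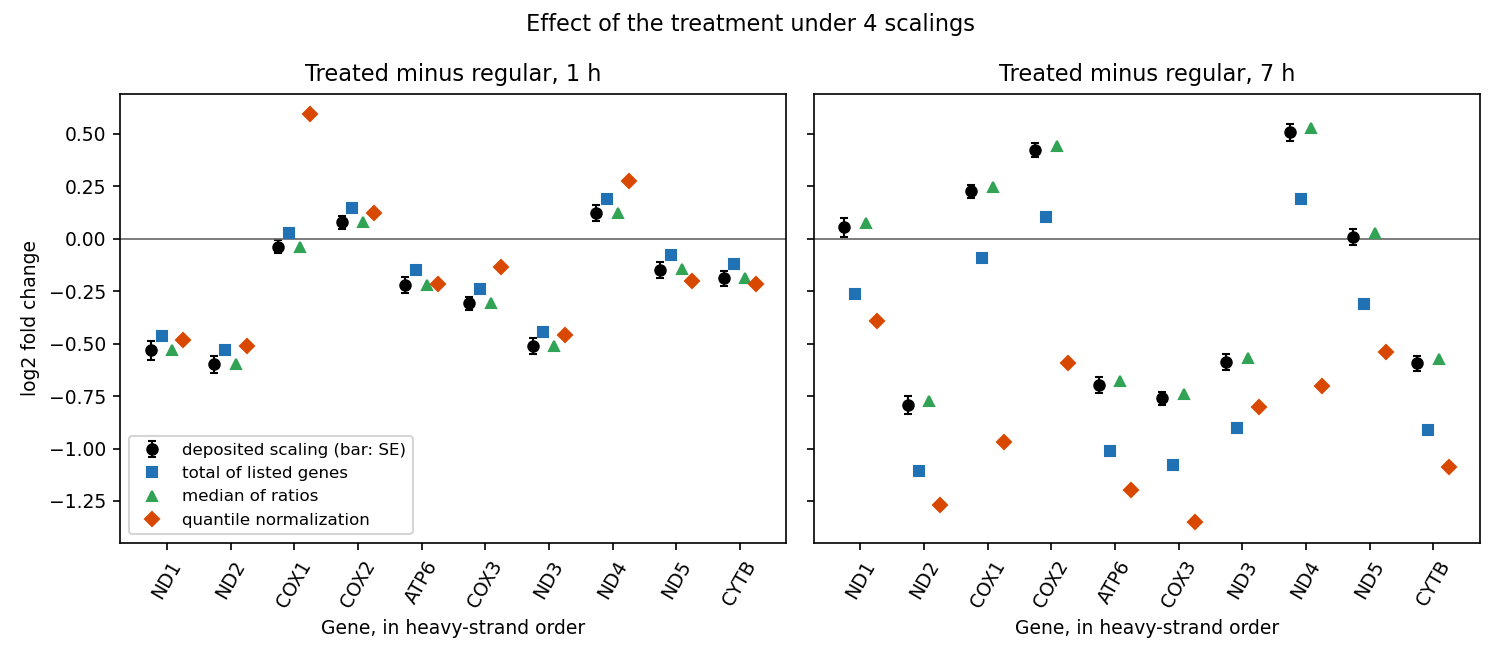
Log2 fold change of treated against regular cells for the 10 genes at 1 h (left) and 7 h (right), under 4 scalings of the libraries (bars on the deposited scaling: standard error). At 7 h the blue squares lie about 0.32 below the black circles for every gene, which puts COX1, ND1 and ND5 below 0, and under quantile normalization all 10 genes are below 0.

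The summed level of the 10 genes shows the same dependence. In sum they measured 25254 and 26317 CPM in the regular 1 h pair against 23409 and 24473 in the treated pair, and at 7 h the regular pair gave 25934 and 24925 CPM against 26494 and 25569. The 1 h groups are apart and the 7 h groups overlap on the deposited scaling. As a share of the listed reads, with no adjustment of library size, the 10 genes made up 2.63% and 2.73% of the regular 1 h pair and 2.55% and 2.66% of the treated pair, which overlap. At 7 h the regular shares were 2.71% and 2.62% and the treated ones 2.22% and 2.16%, which are apart. The log2 ratio of the group means at 7 h was thus 0.03 on one scale and -0.28 on the other. With 2 libraries against 2 an exact permutation test cannot go below 1 in 3, and none was run.

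Ratios between the 10 genes within a library do not depend on library size. COX1, COX2 and ND4 together held 49.8% ± 0.285 of the CPM of the 13 mitochondrial protein genes in the regular 1 h pair and 49.9% ± 0.282 in the regular 7 h pair (SD, n = 2). Their share was 55.3% ± 0.166 after 1 h of treatment and 63.4% ± 0.510 after 7 h. The share was thus higher in every treated library than in every regular one, and higher at 7 h than at 1 h of treatment. These 3 genes were grouped after their values were seen. They are the members called higher at 7 h on the deposited scaling, so the 7 h rise of their share follows from that choice. As shares of one total, they also rise where the other genes fall.

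The ratio of ND4 to ND2 was 2.99 and 2.95 in the regular 1 h pair, 5.03 and 4.76 in the treated 1 h pair, 3.05 and 3.06 in the regular 7 h pair, and 7.55 and 7.47 in the treated 7 h pair. COX2 to COX3, both subunits of one enzyme, gave ratios of 1.11 and 1.12, then 1.46 and 1.46, then 1.10 and 1.08, and then 2.47 and 2.50 in the same order of groups. The ratio of ND1 to ND2, neighbours on the genome, was 0.672 to 0.723 in the other 6 libraries and 1.28 and 1.22 in treated cells at 7 h. These pairs were not among the planned results. ND4 over ND2 and COX2 over COX3 each set a gene called higher at 7 h on the deposited scaling over one called lower. The rise of these ratios at 7 h therefore follows from those calls.

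With each library scaled to its total of the 13 mitochondrial protein genes, 2 of the 10 genes rose and 5 fell at 1 h (of all genes, 30.2% were called higher and 9.85% lower on this scale). COX2 (0.18) and ND4 (0.23) were the 2 that rose, and both keep that sign under the other scalings at 1 h. ND2 (-0.49), ND1 (-0.43), ND3 (-0.41), COX3 (-0.20) and ATP6 (-0.11) fell, with limma adjusted p from 6.8e-10 to 0.0162. The ATP6 call ended on leaving out library B of the regular (adjusted p = 0.123) or of the treated 1 h pair (adjusted p = 0.0868), and without the intensity trend (adjusted p = 0.123).

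At 7 h on this relative scale COX1 (0.19), COX2 (0.39) and ND4 (0.47) rose and COX3 (-0.79), ND2 (-0.82), ATP6 (-0.73), CYTB (-0.63) and ND3 (-0.62) fell, beside 37.0% of all genes higher and 41.3% lower. Under quantile normalization COX1, COX2 and ND4 had negative values at 7 h, given above or in the plot of effects by scaling. ND1 (0.02) and ND5 (-0.03) did not pass the test on this scale, with limma adjusted p of 0.647 and 0.528.

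**Figure D3:**
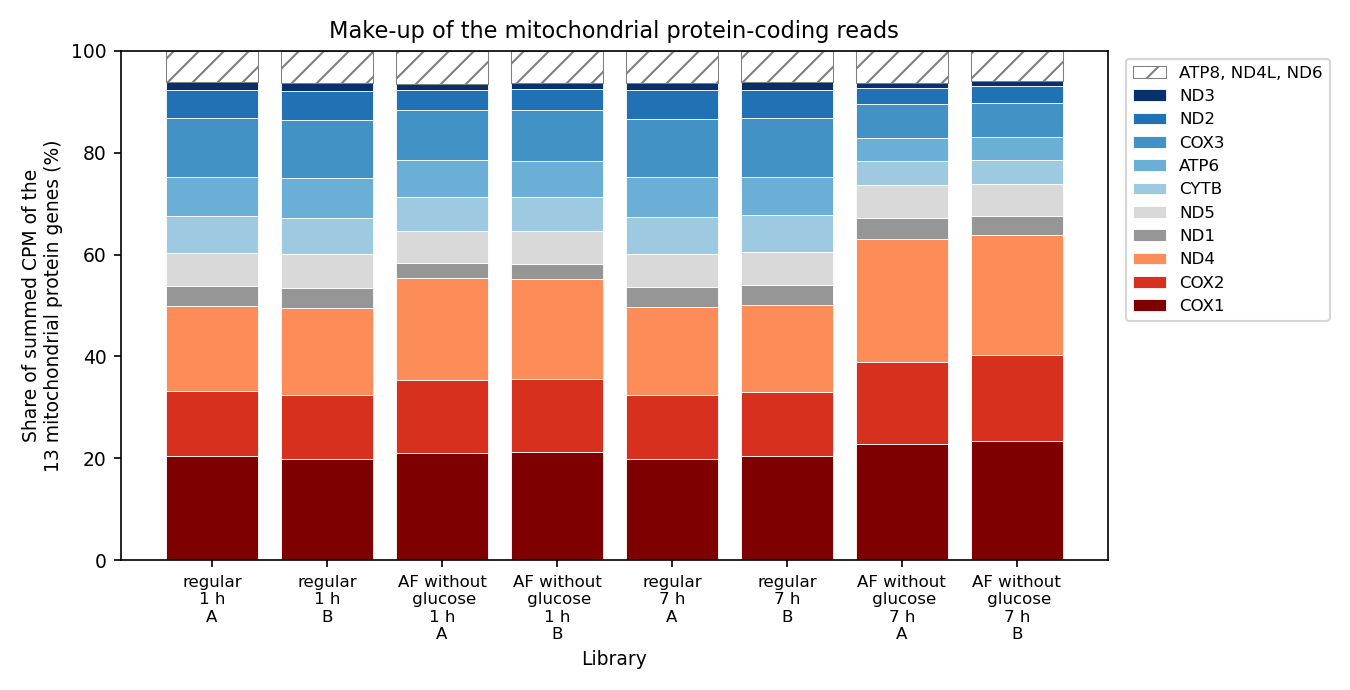
Share of each of the 10 genes, and of ATP8, ND4L and ND6 together (hatched), in the summed CPM of the 13 mitochondrial protein genes, 1 bar per library. COX1, COX2 and ND4 (reds, at the bottom) hold close to 50% in regular libraries and 63.1% and 63.8% in treated libraries at 7 h.

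The other 3 mitochondrial protein genes followed the gene with which they share a messenger or stood apart on the opposite strand. ATP8, which shares its messenger with ATP6, fell by 0.28 at 1 h and 0.77 at 7 h on the log2 scale, and the ATP6 to ATP8 ratio was 3.52 to 3.98 in all 8 libraries. ND4L, which shares its messenger with ND4, had log2 fold changes of 0.08 (limma adjusted p = 0.151) and 0.36 (adjusted p = 1.2e-07). The ND4 to ND4L ratio ranged from 6.50 to 7.53 and was higher in the treated than in the regular libraries at both times. At 1 h it was 6.73 and 6.81 in treated against 6.50 and 6.61 in regular cells. At 7 h it was 7.53 and 7.30 against 6.51 and 6.87. ND6, the protein gene of the other strand, had -0.03 and 0.26, the latter called higher. On the scaling to the total of listed genes neither ND4L nor ND6 was called at 7 h (log2 fold changes 0.04 and -0.06).

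The 2 ribosomal RNAs, RNR1 and RNR2, lie upstream of ND1 on the same strand. As the libraries were made with an mRNA kit, their values cannot be read as levels of ribosomal RNA. RNR2 measured 1464 and 1414 CPM in regular and 5510 and 5216 in treated cells at 7 h, a rise of 1.90 on the log2 scale (limma adjusted p = 2.4e-19). RNR1 measured 276 and 270 CPM in regular and 589 and 592 in treated cells at 7 h, a rise of 1.11. Both were called higher at 7 h under every scaling. At 1 h RNR2 was at 0.03 and RNR1 fell by 0.30, a call that ended on leaving out regular 1 h library B (adjusted p = 0.0792), and likewise treated 1 h library A (adjusted p = 0.0994). MTRNR2L1, a nuclear copy of RNR2, had 15.2 and 15.1 CPM in treated and 3.57 and 3.16 in regular cells at 7 h, and reads of such copies cannot be assigned with certainty.

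Of the 22 mitochondrial tRNAs 12 were listed, at far lower levels than the members. The libraries were made with an mRNA kit. Reads of a free tRNA were not told apart from reads of a precursor that still holds it. The values below therefore cannot be read as levels of mature tRNA. Heavy-strand tRNAs, those read in the direction of the 10 genes, included 6 that were called lower at both times under every scaling: TRNW, TRNG, TRNR, TRNH, TRNS2 and TRNL2. The tRNAs that border ND3 and ND4 are shown whole because these genes, separated by TRNR and ND4L, moved in opposite directions. The sequences are read 5' to 3' and carry no capitals.
TRNG (chrM:9991-10058, before ND3): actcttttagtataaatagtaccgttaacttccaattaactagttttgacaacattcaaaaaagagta
TRNR (chrM:10405-10469, after ND3): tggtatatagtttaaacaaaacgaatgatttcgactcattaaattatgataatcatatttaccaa
TRNH (chrM:12138-12206, after ND4): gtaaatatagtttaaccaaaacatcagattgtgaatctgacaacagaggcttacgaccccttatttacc

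TRNH held 185 and 279 reads in regular and 43 and 35 in treated cells at 1 h, and 304 and 234 against 11 and 24 at 7 h. It fell by 2.54 at 1 h and by 3.14 at 7 h on the log2 scale. TRNG held 107 and 94 reads against 29 and 14 at 1 h and 136 and 133 against 11 and 15 at 7 h (log2 fold changes -2.25 and -2.48). TRNR held 54 and 43 reads against 12 and 12 at 1 h and 73 and 61 against 3 and 3 at 7 h, counts so low that its fitted fold change depends on the prior count. The same limit holds for TRNW, with 42 and 44 reads against 9 and 10 at 1 h and 54 and 45 against 6 and 4 at 7 h. Reads at the tRNAs on both sides of ND3 and at the one after ND4 were thus fewer in every treated library than in every regular one.

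TRNL1, which lies between RNR2 and ND1, was the exception on the heavy strand, with a rise of 0.63 at 7 h. Its 1 h fall of 0.26 (limma adjusted p = 0.0455) ended on leaving out any 1 of 6 libraries, all but the treated 7 h pair. The 5 listed light-strand tRNAs were mixed: TRNC (0.31 and 2.02) and TRNP (0.43 and 1.30) rose at both times, and TRNE (-0.62 and -0.98) fell at both. TRNY went from -0.50 to 0.95, and TRNQ from -0.86 to 0.13, the last not passing the test (adjusted p = 0.672). The 1 h calls of TRNE, TRNY and TRNQ each ended on leaving out either of 2 libraries (limma adjusted p up to 0.220). The library kit does not record strand, so reads of these tRNAs and of ND6 cannot be told apart from reads of the opposite strand.

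**Figure D4:**
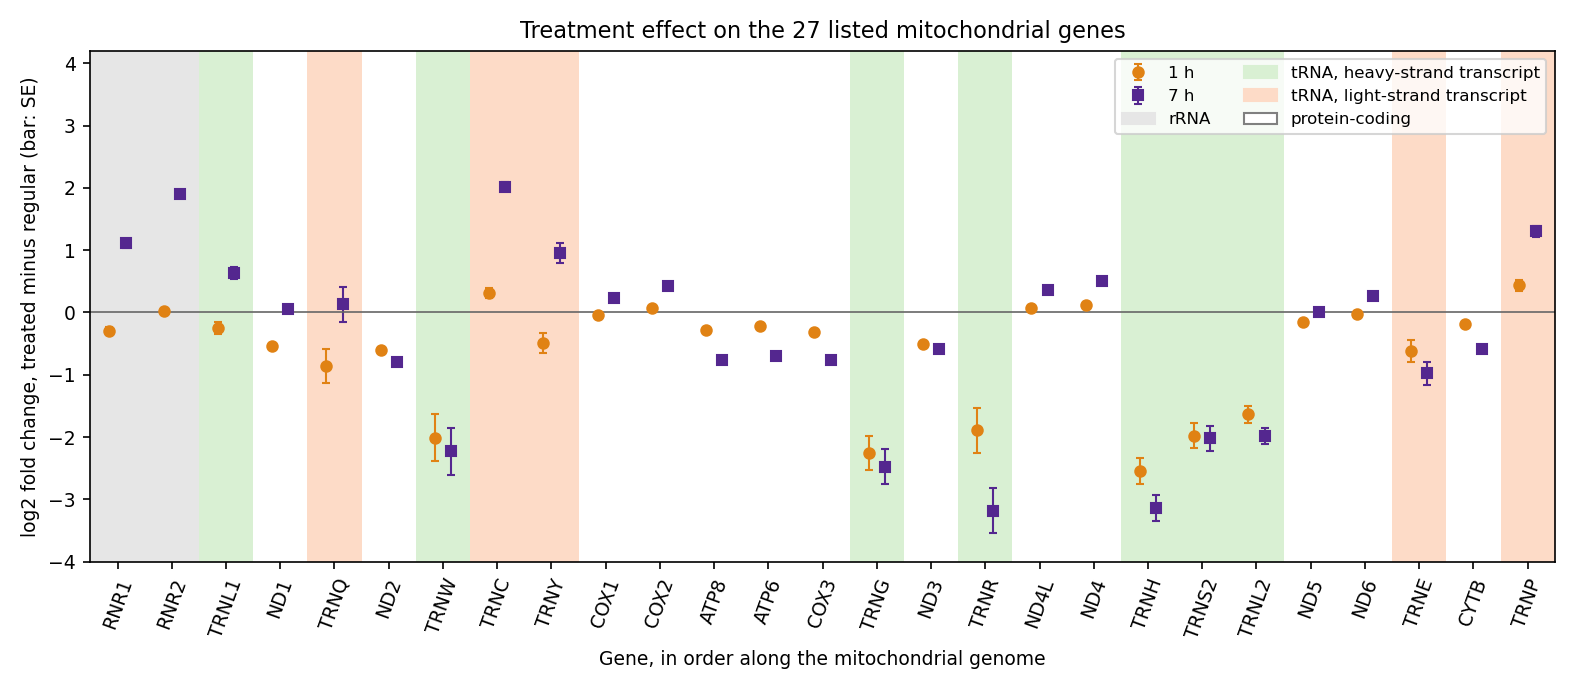
Log2 fold change of treated against regular cells at 1 h (circles) and 7 h (squares) for the 27 listed mitochondrial genes, in order along the genome, on the deposited scaling (bars: standard error). The 2 rRNAs are high at 7 h, TRNW, TRNG, TRNR, TRNH, TRNS2 and TRNL2 are at -1.64 or below at both times, and the protein genes lie between -0.79 and 0.51. TRNW and TRNR had few reads in treated cells.

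Nuclear genes that act on these messengers were taken from lists chosen by function. Their counts stand beside the shares over all genes tested, 17.7% higher and 20.7% lower at 1 h and 40.5% and 41.1% at 7 h. Of 10 genes of mitochondrial transcription, 1 rose and 2 fell at 1 h, near those shares, among them TFAM (-0.24), which packages the genome and starts transcription. At 7 h 1 rose and 7 fell, including MTERF3 (-1.19), a regulator of transcription, and TEFM (-1.05), the elongation factor, and TFB2M (0.24) rose. On the scaling to the total of listed genes the counts were 3 higher and 2 lower at 1 h and 0 and 9 at 7 h. On that scaling 3938 of all 13028 genes tested were higher and 1822 lower at 1 h, and 3132 and 7594 at 7 h. The list median at 7 h was -0.60, and TFB2M was at -0.07 on the scaling to the total of listed genes.

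Of 22 genes of mitochondrial RNA processing and stability, 3 rose and 6 fell at 1 h, near the shares over all genes (17.7% and 20.7%), and 6 rose and 15 fell at 7 h (median -0.29), where 40.5% of all genes were higher and 41.1% lower. On the scaling to the total of listed genes the counts were 5 and 5 at 1 h and 3 and 16 at 7 h. All 13028 genes tested gave 3938 and 1822 at 1 h and 3132 and 7594 at 7 h on that scaling. FASTKD5 (-0.72), needed for junctions not marked by a tRNA, and TRMT10C (-0.58), a subunit of the enzyme that cuts tRNA 5' ends, fell the most at 1 h, and PTCD2 (0.56) rose the most. FASTK (0.17), a factor for ND6 RNA, also rose at 1 h, a call that ended on leaving out library A of the regular (limma adjusted p = 0.0897) or of the treated 1 h pair (adjusted p = 0.0917). At 7 h FASTKD3 (-1.84) and FASTKD2 (-1.41), both RNA-binding FASTK family members, fell the most. SUPV3L1 (1.24), the helicase of the RNA degradosome, and GRSF1 (0.54), of the RNA granules, rose the most.

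Of 14 genes of mitochondrial DNA maintenance, 2 rose and 4 fell at 1 h (all genes 17.7% and 20.7%), and 3 rose and 8 fell at 7 h (all genes 40.5% and 41.1%), with POLG, the replicative polymerase, at -1.06. The level of mitochondrial DNA was not measured. Of 8 listed regulators of mitochondrial biogenesis, 1 rose and 5 fell at 1 h, and 4 rose and 3 fell at 7 h, from NRF1 (-1.18) to GABPB1 (1.10). On the scaling to the total of listed genes the counts for maintenance were 7 higher and 4 lower at 1 h and 0 and 13 at 7 h. Those for the regulators were 2 and 3 at 1 h and 1 and 5 at 7 h. All 13028 genes tested gave 3938 and 1822 at 1 h and 3132 and 7594 at 7 h on that scaling.

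Among the nuclear partners of the members in the same complexes, more genes rose than fell at 7 h on the deposited scaling, where 40.5% of all genes were higher and 41.1% lower. Of 35 nuclear complex I genes 24 rose and 2 fell, of 9 of complex III 4 rose, near the share over all genes, and 2 fell, of 11 of complex IV 11 rose, and of 16 of complex V 11 rose and 3 fell. On the scaling to the total of listed genes these counts were 6 and 17, 1 and 6, 4 and 0, and 1 and 10. More genes of complexes I, III and V were thus lower than higher on that scaling. The same held for all 13028 genes tested, of which 3132 were higher and 7594 lower at 7 h. At 1 h 2 nuclear genes of complex I rose and 7 fell, and 0 rose and 1 or 2 fell in each of the other complexes, beside 17.7% and 20.7% of all genes. On the scaling to the total of listed genes the 1 h counts were 6 higher and 2 lower for complex I and 2 and 0 for complex III. They were 1 and 1 for complex IV and 4 and 0 for complex V. Of all 13028 genes tested, 3938 were higher and 1822 lower at 1 h on that scaling. No direction is read from these 1 h counts. On the deposited scaling the 1 h calls of NDUFV1 (higher) and of NDUFS3, NDUFC2, NDUFS5 and NDUFB11 (lower) each ended on leaving out some single library.

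For scale, TXNRD1, thioredoxin reductase 1, had log2 fold changes of 0.05 at 1 h (not passing the test) and 2.82 at 7 h, and HMOX1, heme oxygenase 1, had 7.43 at 1 h.

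Markers of other cell types moved with the 7 h treatment. The 3 neuron markers summed to 43.5 to 46.1 CPM in regular and 127 to 132 CPM in treated cells at 7 h, and the 2 listed epithelial markers (KRT8 and KRT18) to 56.0 to 59.6 and 131 to 133. Of the 4 immune markers CD68 alone was listed, at 13.2 to 14.3 and 21.1 to 22.1 CPM, and of the 3 endothelial markers VWF alone, at 0.618 to 0.626 CPM in regular and 1.46 or more in treated cells. Their part in the results on the members was not tested.

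The genes outside the mitochondrial genome whose log2 values followed the mean of the members most closely over the 8 libraries were CSRP1 (Pearson r 0.976), RIOK1 (0.975), CD2BP2 (0.962), THBS1 (0.961) and GLIPR1 (0.960), out of 9376 genes searched. This is a description over 8 libraries in 4 groups, which share scaling and treatment, and 78 genes had r above 0.9. The members themselves ranged from 0.983 for ND3 and 0.967 for ND2 to -0.67 for ND4 and -0.68 for COX2 in their correlation with that mean, so the mean does not stand for all 10.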

How the data were processed

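RNA was extracted with TRIzol and libraries were made with the SMART-Seq mRNA HT and Nextera XT kits, per the labels' protocols. The submitters' processing notes name HISAT2, edgeR and GRCh38, with no version. Log2 values were deposited for 13036 genes in 8 columns, named by group and not by replicate number. The deposited values were found to be log2 of CPM plus a prior of 0.0522 CPM, worth 2 reads of a mean library, and 100% of values gave whole reads within 0.1 read.

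Genes at 1 CPM or more in at least 2 libraries (13028, 8 removed) were tested with limma 3.58.1 in R 4.3.3 (intensity trend, 1 mean per group, 8 libraries, residual degrees of freedom 4), with Benjamini-Hochberg adjustment over all genes tested and a threshold of 0.05. A relative fit rescaled each library to its mitochondrial protein total. Fold changes are on the log2(CPM + prior) scale. The limma test was checked on simulated counts with known library sizes, a preset spread and changes in a small part of the genes. That check does not cover the choice of scaling or changes in most genes. Library pairs of a group differed by more than sampling noise (chi-square per degree of freedom 2.79 to 3.62).

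All 10 members were described, with every other listed mitochondrial gene, up to 2 rising and 2 falling genes of each functional list per time, TXNRD1, HMOX1, nuclear copies, and the 5 genes most like the members' mean. The members and lists were chosen with earlier results of these data known. Alternatives covered scaling, test, filter, pseudocount and leaving out each library, and limma with voom weights on the recovered reads was added after seeing the data. The result of 1 further marker list is not reported here.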

Additional observations from a re-analysis of the deposited data

Results flagged for a closer look

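The treatment effect differed between 7 h and 1 h for 9 of the 10 genes, by a limma test of the difference itself on the deposited scaling. On the log2 scale the 7 h effect minus the 1 h effect was 0.59 for ND1, 0.38 for ND4, 0.34 for COX2, 0.27 for COX1 and 0.16 for ND5. It was -0.48 for ATP6, -0.45 for COX3, -0.40 for CYTB and -0.19 for ND2. The values of ATP6, COX3 and CYTB were called lower under all 16 alternatives, and those of ND4, COX2, COX1 and ND5 changed sign with the scaling. Groups of 2 libraries were not tested for a library far from the others.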

How the results depend on the processing

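Scaling changed the most. Over all 13028 genes tested, the total of listed genes gave 3938 higher and 1822 lower at 1 h, and 3132 and 7594 at 7 h. Quantile normalization gave 3085 and 2250 over all genes at 1 h, and 5096 and 5471 at 7 h. With libraries scaled to the total of listed genes, members called higher and lower were 2 and 6 at 1 h, 2 and 8 at 7 h, 1 and 7 for the difference between times, and 1 higher for treated cells at 7 h against 1 h, and scaling to the total outside the mitochondrial genome gave the same 2, 8, 1, 7 and 1. Quantile normalization gave 3 higher at 1 h, 0 higher and 10 lower at 7 h, 0 and 9 for the difference, 2 and 4 in regular culture, and 1 and 9 in treated cells. The number called higher at 1 h was 0 without the intensity trend, 2 with voom weights, and 0 to 2 on leaving out 1 library (0 without regular 1 h library A or treated 1 h library B, 2 without treated 1 h library A).

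Values that turned sign are given for the total of listed genes, the total outside the mitochondrial genome and quantile normalization, in that order. The summed level went to -0.0385, -0.0395 and 0.11 at 1 h, of which only the last turned, and to -0.28, -0.29 and -0.87 at 7 h. At 7 h ND1 was -0.26, -0.27 and -0.39, ND5 -0.31, -0.31 and -0.54, and COX1 -0.089, -0.092 and -0.97. For the difference between times ND4 was -0.00063, -0.0024 and -0.98, ND5 -0.23, -0.23 and -0.34, COX1 -0.12, -0.12 and -1.56, COX2 -0.041, -0.043 and -0.72, and the median of the 10 genes -0.35, -0.35 and -0.81. In treated cells at 7 h against 1 h ND5 was -0.26, -0.26 and -0.56, COX1 -0.13, -0.13 and -1.43, COX2 -0.062, -0.065 and -0.76, and the median -0.36, -0.36 and -0.84. COX1 at 1 h was 0.03, 0.03 and 0.60, of which only the last was called. Under quantile normalization alone COX1 was 0.13 in regular culture, ND4 -0.70 and COX2 -0.59 at 7 h, and ND4 -0.91 in treated cells at 7 h against 1 h. The part of these shifts that is common to all genes follows from the construction of each scaling, and no other cause was tested.

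A pseudocount of 5 CPM, no filter on low values and fitting only the 4 libraries of a comparison changed no call or direction of the results computed under them. Median-of-ratios size factors changed 1, the ND3 difference in treated cells (-0.05). No result that passed the test turned sign on leaving out 1 library. The edgeR and DESeq2 alternatives planned for recovered reads were not run, and limma with voom weights was run on those reads in their place. No paired analysis was possible because the columns carry the group and no replicate number. With 2 libraries per group, differences of about 0.1 on the log2 scale, such as ND4 at 1 h, rest on single libraries.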
